A study of Mus musculus with 30 samples.

Results

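The regions described here were the ATAC-seq windows that contain a promoter, defined as windows on autosomes that hold at least 1 transcription start site (TSS) of a protein-coding gene in the GENCODE vM21 annotation of the mouse genome build GRCm38. The start of every annotated protein-coding transcript counted, with no filter for complete transcripts. In the 24 h table, 16227 of 305931 windows (5.30%) met this rule, and at 4 h 16004 of 369846 did (4.33%). They carried a TSS of 14139 and 14094 of the 20722 autosomal protein-coding genes (68.2% and 68.0%). A promoter window was 1025 bp wide in the median at 24 h and 902 bp at 4 h, while other autosomal windows were 647 and 588 bp wide.

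The study asked how drugs that change actin structure alter chromatin access. The comparisons used 7 groups of 3 libraries. Mouse marrow-derived mesenchymal stem cells (MSC), a primary line from 6 male C57BL/6J mice, were profiled at 24 h as control, with CK666 or with cytochalasin D (CytoD), and at 4 h as control or with CK666. NIH3T3, an embryonic fibroblast line for which the labels also list C57BL/6J, was profiled at 4 h as control or with CK666. CK666 inhibits the Arp2/3 complex, which starts branches on actin filaments, and CytoD blocks actin polymerization by capping filament ends. Drug doses are not in the labels, and nothing in them states that the 3 libraries of a group came from separate cultures, so p-values measure the spread between these libraries. Libraries with siRNA were left out. Total counts per library ran from 14071300 to 22352200 in MSC at 24 h, from 29239400 to 34979800 in MSC at 4 h, and in NIH3T3 from 24368900 to 27866400 in control and from 14496100 to 23146400 with CK666 (rounded to 6 digits).

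In ATAC-seq, a transposase cuts DNA that is not wrapped in nucleosomes, so the read count of a window rises with its accessibility. Most promoters of genes used in all cells lie in stretches rich in the dinucleotide CG, where transcription factors keep nucleosomes away in nearly every cell type, whereas CpG-poor promoters belong more often to genes of particular tissues. Actin acts on promoters through cofactors: free actin monomers hold MRTF, the partner of the factor SRF, away from genes of the contractile cytoskeleton, and cytoskeletal tension regulates YAP, the partner of TEAD factors. Bulk libraries cannot tell fewer open cells from a smaller signal in each cell.

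Called promoters were mostly poor in CG, as a few sequences illustrate. The 200 bases before the TSS of 3 promoters that gained accessibility with CK666 are given below 5′ to 3′ on the gene's strand with each CG in capitals, beside Khsrp, the most open CpG-rich promoter with an adjusted p above 0.05 in both comparisons at 4 h (log2 fold change −0.05 in MSC and −0.07 in NIH3T3). Tenm4 (chr7:96171046-96171245, plus strand) held 4 CG, Phyhd1 (chr2:30266003-30266202, plus strand) and Gsta3 (chr1:21240389-21240588, plus strand) held 1 each, and Khsrp (chr17:57031523-57031722, minus strand) held 21. Over all promoter windows of the 4 h table, the median was 16 CG for CpG-rich and 4 for CpG-poor promoters.
Tenm4: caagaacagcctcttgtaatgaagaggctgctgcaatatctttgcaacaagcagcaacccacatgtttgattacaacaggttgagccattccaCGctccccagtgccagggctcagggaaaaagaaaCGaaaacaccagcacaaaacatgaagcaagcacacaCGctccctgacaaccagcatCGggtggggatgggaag
Phyhd1: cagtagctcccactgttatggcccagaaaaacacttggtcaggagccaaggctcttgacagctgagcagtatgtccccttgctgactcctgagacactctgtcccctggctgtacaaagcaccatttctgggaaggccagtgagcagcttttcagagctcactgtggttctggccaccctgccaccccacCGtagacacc
Gsta3: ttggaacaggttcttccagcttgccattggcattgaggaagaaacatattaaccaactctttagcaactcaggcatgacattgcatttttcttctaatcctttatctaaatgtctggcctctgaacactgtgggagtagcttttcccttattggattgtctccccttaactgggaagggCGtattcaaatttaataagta
Khsrp: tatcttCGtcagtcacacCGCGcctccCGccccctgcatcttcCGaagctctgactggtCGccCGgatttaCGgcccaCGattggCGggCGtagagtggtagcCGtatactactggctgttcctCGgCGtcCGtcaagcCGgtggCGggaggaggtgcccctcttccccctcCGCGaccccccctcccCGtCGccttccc

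A second set shows short sequences that recurred among promoters moving in the same direction. Capitals mark TGATGNAA on either strand, the core of sites bound by pairs of C/EBP and ATF proteins, in 2 windows gained with CK666 at 24 h. The bases shown precede an alternative start of Eif3a (chr19:60782191-60782390, minus strand), whose use as a promoter was not tested, and Try5 (chr6:41314712-41314911, minus strand). Capitals mark TGANTCA, the site of AP-1, in C4bp (chr1:130648420-130648619, minus strand) and Gzmb (chr14:56262261-56262460, minus strand), lost with CytoD. In Myl9 (chr2:156775220-156775419, plus strand), lost with CK666 at 4 h in MSC, they mark a CArG box, the site of SRF, whose last base lies 108 bases before the TSS.
Eif3a: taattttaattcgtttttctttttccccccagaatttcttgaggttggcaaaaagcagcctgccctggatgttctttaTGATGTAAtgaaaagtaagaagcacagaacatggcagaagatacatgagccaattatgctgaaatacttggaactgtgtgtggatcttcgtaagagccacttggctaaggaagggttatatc
Try5: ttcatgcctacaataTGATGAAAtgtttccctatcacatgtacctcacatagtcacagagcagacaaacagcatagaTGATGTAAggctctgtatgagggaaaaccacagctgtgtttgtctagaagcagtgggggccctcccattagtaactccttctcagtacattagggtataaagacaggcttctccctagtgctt
C4bp: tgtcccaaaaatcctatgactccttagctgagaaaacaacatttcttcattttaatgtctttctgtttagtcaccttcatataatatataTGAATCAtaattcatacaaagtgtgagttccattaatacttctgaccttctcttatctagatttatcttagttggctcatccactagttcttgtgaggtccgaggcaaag
Gzmb: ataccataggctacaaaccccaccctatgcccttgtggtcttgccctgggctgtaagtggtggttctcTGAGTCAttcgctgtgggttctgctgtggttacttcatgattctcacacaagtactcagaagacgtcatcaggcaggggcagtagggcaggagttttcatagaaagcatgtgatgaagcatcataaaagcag
Myl9: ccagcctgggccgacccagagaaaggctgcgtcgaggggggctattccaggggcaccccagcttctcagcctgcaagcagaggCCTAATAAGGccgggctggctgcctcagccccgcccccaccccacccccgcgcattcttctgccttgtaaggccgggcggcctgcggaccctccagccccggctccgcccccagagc

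Promoter windows were more open than other windows. The median promoter in control libraries had 7.89 CPM/kb (counts scaled to library size, per kb of window) in MSC at 24 h, 9.43 in MSC at 4 h and 8.91 in NIH3T3, which was 5.53, 7.35 and 6.37 times the median of autosomal windows without a protein-coding TSS. In MSC control at 4 h, the 15 tested promoter windows of mesenchymal markers had a median of 6.37 CPM/kb, below the median promoter, and ran from 0.34 to 32.9. The highest were Col1a2 (a collagen I chain, 32.9 CPM/kb), Cd44 (a hyaluronan receptor, 25.6), Pdgfra (a mesenchymal growth factor receptor, 18.7) and Twist1 (a mesenchymal transcription factor, 16.0). Between 11 and 13 of 16 mesenchymal marker genes had a tested promoter window, against 3 to 4 of 15 hematopoietic, 1 to 3 of 12 epithelial and 7 of 12 endothelial ones. The summed normalised counts of the mesenchymal markers at 24 h were 4883 to 5384 in control, and lay lower without overlap with CK666 (4511 to 4832) and with CytoD (4084 to 4291). At 4 h the sums overlapped, with 7870.0 to 8299 in control and 7899.7 to 8405 with CK666 in MSC, and 5855 to 6482 against 4987 to 6296 in NIH3T3. The part of this difference in the 24 h results was not tested. A change in the promoters' part of the reads was not detected with these numbers of libraries. In MSC at 24 h their share of autosomal counts was 26.6% ± 0.39 (SD, n = 3) in control, 27.4% ± 0.61 with CK666 and 26.6% ± 0.22 with CytoD, at 4 h it was 27.1% ± 0.27 against 26.6% ± 0.40 with CK666, and in NIH3T3 25.2% ± 0.94 against 25.1% ± 0.60. Exact two-sided permutation tests gave p of 0.2, 1.0, 0.2 and 0.9 (Benjamini-Hochberg adjusted over these 4 tests 0.4, 1.0, 0.4 and 1.0), where 3 against 3 libraries cannot go below 0.1.

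Few promoters moved beyond 2-fold. Windows were called gained or lost in edgeR's quasi-likelihood test where the p-value, adjusted over all windows of the table, was below 0.01 and the log2 fold change was above 1 or below −1. With CK666 at 24 h in MSC, 90 promoter windows were gained and 36 lost, together 0.778% of 16190 tested. With CytoD, 42 were gained and 31 lost (0.451%), and the gained count was 27 without CytoD library 2 and 24 without CytoD library 3. At 4 h, CK666 gained 26 and lost 14 of 15440 promoter windows in MSC (0.259%), and gained 186 and lost 52 of 15493 in NIH3T3 (1.54%). Among autosomal windows without a TSS, 3.01% were called with CK666 at 24 h (1.92% gained and 1.09% lost), 2.47% with CytoD (1.0% and 1.47%), and 1.05% in MSC (0.609% and 0.440%) and 3.62% in NIH3T3 (1.92% and 1.70%) with CK666 at 4 h. The interquartile range of the log2 fold change, which does not depend on a threshold, was likewise narrower at promoters, at 0.31, 0.34, 0.25 and 0.49 against 0.73, 0.81, 0.56 and 0.82 elsewhere. This range does depend on read depth. Promoters had median normalised counts of 171, 163, 319 and 221, against 20.6, 20.9, 27.4 and 23.1 elsewhere. The part of depth in the narrower range was not tested. Changes smaller than 2-fold were more common: at an adjusted p under 0.01 without a fold limit, 402 promoters rose and 298 fell with CK666 at 24 h, 147 rose and 728 fell with CytoD, and 248 rose and 585 fell with CK666 at 4 h in MSC and 458 and 725 in NIH3T3. Together these were 4.32%, 5.40%, 5.40% and 7.64% of promoters, beside 5.96%, 5.71%, 4.02% and 6.79% of autosomal windows without a TSS. Without a fold limit, promoters thus passed less often than other windows at 24 h and more often at 4 h. The median promoter moved little, by 0.03, −0.07, −0.03 and 0.00, but the CytoD value became 0.00 under total counts or promoter-only scaling and 0.05 with a loess offset, and the NIH3T3 value 0.11 under total counts and 0.15 with a loess offset, so these medians give no direction. The counts of rises and falls without a fold limit rest on the main scaling and were not repeated under the others.

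Most called promoters lay among the less open ones. Promoters were cut into 5 equal groups (quintiles) by mean CPM over the libraries fitted, and other windows were cut at the same limits. From the least to the most open quintile, 28, 66, 26, 5 and 1 promoters were called with CK666 at 24 h, 25, 32, 12, 3 and 1 with CytoD, 17, 18, 4, 0 and 1 with CK666 at 4 h in MSC, and 108, 111, 16, 1 and 2 in NIH3T3. In the most open quintile this was 0.0309%, 0.0309%, 0.0324% and 0.0645% of promoters, while 2.53%, 1.81%, 0.299% and 1.26% of the other windows with the same counts were called. In the least open quintile, the 3 MSC comparisons called fewer promoters than other windows (0.865% against 1.61%, 0.772% against 1.02%, and 0.551% against 0.897%), and in NIH3T3 3.49% of promoters against 2.11% of other windows were called, a share of promoters that was 1.97% with a loess offset and 1.19% with DESeq2.

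**Figure D1:**
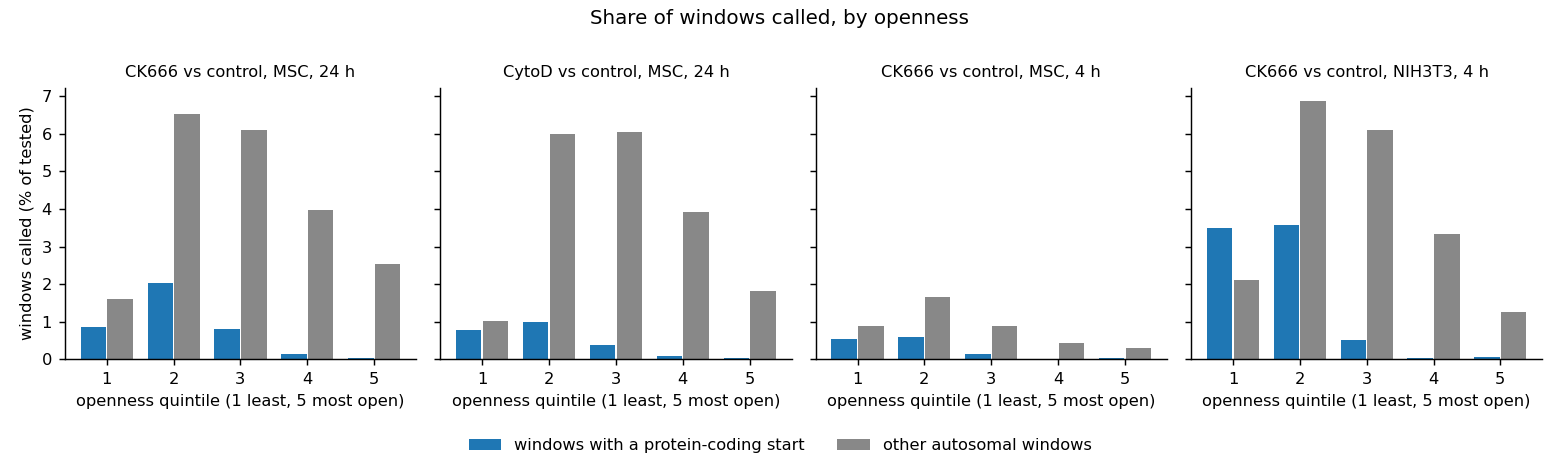
Share of tested windows called (percent, y axis) by openness quintile (x axis, 1 least to 5 most open) in the 4 comparisons, with promoter windows in blue and other autosomal windows in grey. Promoters lie below other windows in every quintile except the least open quintile in NIH3T3 (3.49% against 2.11%), and reach 0.0645% or less in the most open quintile.

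In NIH3T3, the median fold change decreased from weakly to strongly open promoters. The median log2 fold change from the least to the most open quintile was 0.42, 0.12, 0.01, −0.07 and −0.16, and 104 of the 108 called promoters in the least open quintile were gained. The least open quintile held 0.808% to 1.02% of promoter reads in control and 1.01% to 1.48% in CK666 libraries, and the most open quintile 58.2% to 60.1% against 56.5% to 57.6%. With a loess offset, which removes a trend with abundance, the medians of the quintiles were 0.26, 0.25, 0.20, 0.12 and 0.04 and 61 promoters of the least open quintile were called. CK666 libraries were shallower than control libraries in these cells, and the part of depth in this trend was not tested. With CytoD in MSC, the least open quintile had a median of 0.19, which was 0.26 under total counts and 0.10 with a loess offset, and quintiles 2 to 5 had −0.01, −0.15, −0.14 and −0.07.

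Called promoters were mostly CpG-poor. A promoter was called CpG-rich where the 500 bp around its TSS had at least 50% GC and an observed to expected CG ratio of at least 0.6, which held for 61.5% of promoter windows at 24 h. With CK666 at 24 h, 6 of 9974 CpG-rich (0.0602%) and 120 of 6216 CpG-poor promoters (1.93%) were called. With CytoD, 12 CpG-rich (0.120%) and 61 CpG-poor ones (0.981%) were, and with CK666 at 4 h in MSC 0 of 9791 and 40 of 5649 (0.708%). In NIH3T3, 57 of 9577 CpG-rich promoters were called (0.595%) beside 181 of 5916 CpG-poor ones (3.06%). In its least open quintile, 3.85% of CpG-rich promoters were called against 3.35% of CpG-poor ones. CpG-poor promoters were also less open, but in the second quintile with CK666 at 24 h 0.192% of CpG-rich and 3.76% of CpG-poor promoters were called.

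**Figure D2:**
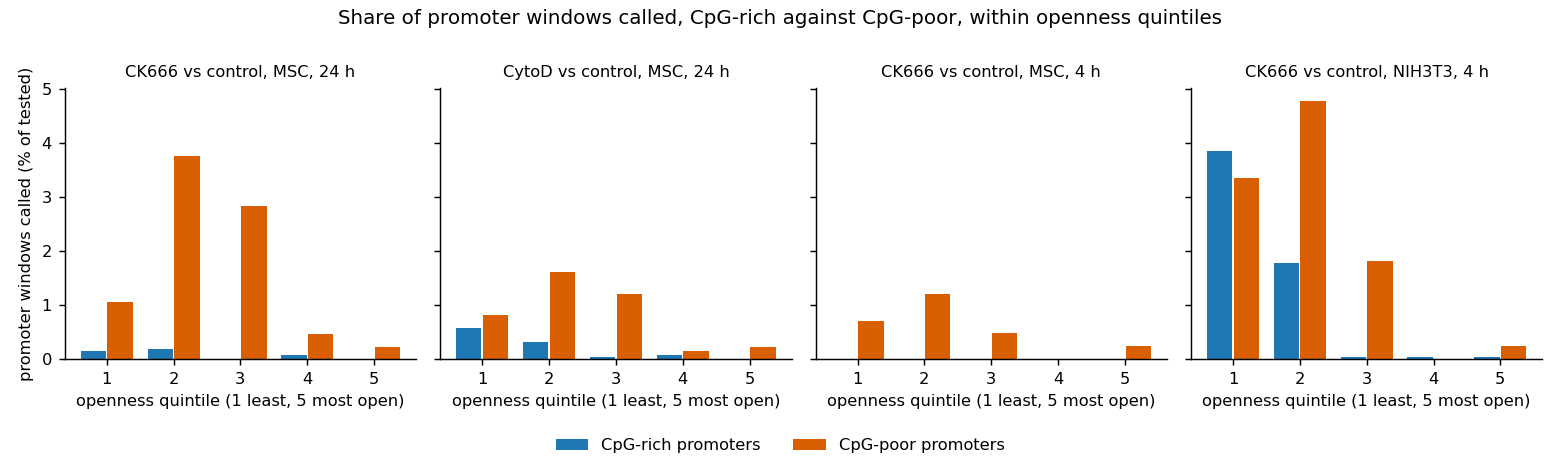
Share of promoter windows called (percent, y axis) by openness quintile (x axis), with CpG-rich promoters in blue and CpG-poor ones in orange. CpG-poor promoters are higher in each quintile of the 3 MSC comparisons except the fourth at 4 h, where both are 0, while in the least open quintile in NIH3T3 3.85% of CpG-rich and 3.35% of CpG-poor promoters were called.

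Windows that held only an alternative start of their gene, that is a TSS other than the one farthest 5′, made up 58 of 126, 30 of 73, 17 of 40 and 90 of 238 called windows in CK666 at 24 h, CytoD, and CK666 at 4 h in MSC and NIH3T3. Among all tested promoters they were 4157 of 16190 at 24 h and 3731 of 15440 and 3784 of 15493 at 4 h, and among CpG-poor ones 2658 of 6216, 2242 of 5649 and 2345 of 5916. Within CpG-poor promoters, 2.18% of alternative and 1.74% of gene starts were called with CK666 at 24 h. Whether the alternative starts act as promoters in these cells was not tested. Of called windows whose gene had another tested promoter window, 2 of 67, 0 of 35, 2 of 20 and 2 of 97 had one called in the same direction. Of all tested promoters, 0.778%, 0.451%, 0.259% and 1.54% were called in either direction. The 2 windows at 4 h in MSC were neighbouring windows of Nfe2l1. The median log2 fold change of the other windows of these genes, in the called direction, was 0.06, 0.09, 0.14 and 0.15. Herpud1, an endoplasmic reticulum stress gene, is an example, with a log2 fold change of 2.81 at a weak alternative start and 0.01 at its gene start with CK666 at 24 h. Another window called in the same direction lay within 50 kb of 40.0% of promoters gained with CK666 at 24 h, against 25.9% of all tested promoters, and of 45.2% of promoters lost with CytoD, against 19.4%.

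Promoters ranked from here on are those with the largest fold changes among called windows with a mean of at least 20 normalised counts whose control and treated libraries do not overlap, so that their size and lack of overlap describe the choice. With CK666 at 24 h in MSC, the largest of these gains were at promoters that were nearly closed in control cells. Ostn, which encodes the secreted bone and muscle peptide osteocrin, had 7.79, 4.26 and 0.894 normalised counts in the 3 control libraries and 56.2, 62.6 and 67.8 with CK666 (chr16:27307337-27307854). All CK666 libraries lay above all controls, and the log2 fold change was 3.92 (SE 0.46, adjusted p = 1.22e-10). An alternative start of Eif3a, a subunit of translation initiation factor eIF3, rose from 9.09, 1.70 and 4.47 to 41.2, 54.8 and 43.2 (3.27, SE 0.46), and one of Sox6, a transcription factor of cartilage formation, from 2.60, 8.52 and 15.2 to 65.5, 83.5 and 75.7 (2.99, SE 0.34). The 3 genes share low control counts and groups that do not overlap. Gsta3, a glutathione transferase of detoxification, started higher, at 41.6, 35.8 and 35.7, and reached 311, 244 and 263 (2.86, SE 0.17, adjusted p = 1.19e-23). The remaining 6 of the 10 largest gains above this count were Try5 (a trypsin, 2.99), Gnpnat1 (an enzyme of UDP-GlcNAc synthesis, 2.84), Bglap2 (an osteocalcin gene, 2.60), Serpina3c (a serine protease inhibitor, 2.06), Ankrd65 (2.04) and Vps8 (a vesicle tethering subunit, 2.02). Gsta3, Try5, Bglap2 and Serpina3c have close relatives in the genome, and the sources used here do not say how reads that fit several copies were counted.

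Losses with CK666 at 24 h were smaller. An alternative start of Helt, a basic helix-loop-helix transcription factor, fell from 121, 118 and 173 to 38.4, 30.5 and 38.3 (−1.95, SE 0.21, adjusted p = 3.64e-12). The gene start of 4930486L24Rik fell from 129, 130 and 123 to 56.2, 48.7 and 37.3 (−1.42), and that of Sh2d1b1, an adaptor of lymphocyte receptors, from 70.1, 95.5 and 77.8 to 43.1, 26.1 and 23.6 (−1.40). These losses left clear signal in all CK666 libraries. The others were Atp6v1h (a proton pump subunit, −1.33), Desi2 (a deSUMOylating enzyme homologue, −1.33), C4bp (a complement regulator, −1.27), Clip4 (−1.25), Azi2 (an adaptor of the kinase TBK1, −1.25), Myadm (a membrane protein, −1.24) and Il1rn (the interleukin-1 receptor antagonist, −1.22). Atp6v1h and Desi2 lost their call when certain single libraries were left out.

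The 3 largest gains with CytoD above a mean of 20 counts, measured against the same control libraries, were at weak windows. Ankrd65 rose from 9.09, 7.67 and 7.15 to 64.9, 26.7 and 42.1 normalised counts (2.48, SE 0.40, adjusted p = 1.89e-06). Rundc3a, a RUN domain gene of neurons and 1 of the few CpG-rich promoters called, rose from 0, 12.8 and 8.04 to 45.8, 30.4 and 31.1 (2.22), and the homeobox gene Hoxb13 from 6.49, 9.38 and 8.04 to 25.4, 27.9 and 48.5 (2.07). Groups did not overlap at these promoters, though single counts differed widely within a group. S100a8, a calprotectin subunit of myeloid cells, was better covered, with 87.0, 90.3 and 121 in control and 302, 290 and 318 with CytoD (1.60, SE 0.14, adjusted p = 1.61e-15). An alternative start of Acaca, the acetyl-CoA carboxylase of fatty acid synthesis, rose by 1.66 on the log2 scale. Adgre1, which encodes the macrophage marker F4/80, rose from 13.0, 14.5 and 19.7 to 59.8, 48.6 and 41.1 (1.63, SE 0.34). Of the 15 hematopoietic markers, 4 had a tested promoter window, Adgre1 was the only one called, and their summed counts ranged from 93.8 to 154 in control and 110.5 to 178 with CytoD. Their part in the Adgre1 and S100a8 gains was not tested. Olfm5 (1.84), 1700029H14Rik (1.69), Trmt13 (1.62) and Slc45a3 (1.54) complete the 10 largest gains above that count, and these 4 and Hoxb13 lost their call without some single library.

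The median mean count was 91.0 over the 31 promoters lost with CytoD and 34.6 over the 42 gained. An alternative start of Gtsf1, a gene of the piRNA pathway, fell from 168, 133 and 118 to 43.3, 49.8 and 34.7 (−1.71, SE 0.21). One of Myadm fell from 278, 274 and 284 to 102, 101 and 97.8 (−1.48, SE 0.14), and Krtap1-5, which encodes a hair keratin-associated protein, from 281, 353 and 358 to 121, 153 and 105 (−1.41, SE 0.13). The spread within groups was small beside these differences. Cav1, the main coat protein of caveolae, fell from 106, 102 and 117 to 36.9, 38.9 and 51.2 (−1.34, SE 0.22, adjusted p = 2.75e-06). Bcat1, which transfers the amino group of branched-chain amino acids and has a CpG-rich promoter, fell from 313, 351 and 369 to 131, 162 and 123 (−1.33, SE 0.12). Nup93 (a nuclear pore component, −1.32), C4bp (−1.31), Ngef (−1.27), Il1rl1 (the interleukin-33 receptor, −1.27) and 4930486L24Rik (−1.26) followed, of which Nup93, Ngef and Il1rl1 lost their call without some single library.

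The direct contrast of CK666 with CytoD at 24 h called 77 promoters higher with CK666 and 36 lower (0.698%), beside 3.38% of autosomal windows without a TSS (2.21% higher and 1.17% lower). Ostn was 4.36 log2 units higher with CK666 (SE 0.49), with 0, 1.21 and 6.40 counts in the CytoD libraries. Mars, the methionyl-tRNA synthetase gene, had 222, 198 and 236 with CK666 and 31.8, 66.8 and 38.4 with CytoD (2.27, SE 0.19). Cdsn, the corneodesmosin gene of skin cell adhesion, had 135, 137 and 97.3 against 12.7, 32.8 and 18.3 (2.54). The reverse held for Hal, histidine ammonia-lyase, with 233, 221 and 208 against 658, 657 and 657 and control values of 383, 452 and 437 between them (−1.57, SE 0.10, adjusted p = 4.54e-23). Olig1, a transcription factor of oligodendrocytes, was also lower with CK666 than with CytoD (−1.44). It had 35.6, 42.6 and 45.2 with CK666, 129, 95.9 and 111 with CytoD, and 46.8, 50.3 and 59.0 in control, nearer to CK666. Bcat1 and Krtap1-5, which fell with CytoD, had log2 fold changes of 0.44 and −0.27 with CK666, whereas Myadm had −1.24 and −1.48 and C4bp −1.27 and −1.31 with CK666 and CytoD.

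At 4 h in MSC, the largest gain with CK666 above a mean of 20 counts was at Mars, which rose at an alternative start, from 69.5, 77.9 and 67.5 to 390, 345 and 318 normalised counts (2.29, SE 0.13, adjusted p = 7.35e-25). Adipoq, the fat cell hormone adiponectin, rose from 6.41, 11.6 and 10.7 to 34.8, 47.7 and 37.3 (2.05, SE 0.36). Gsta3 rose from 34.2, 26.3 and 35.4 to 112, 139 and 120 (1.95, SE 0.21). The groups did not overlap at any of them. Alternative starts of Nfe2l1, a transcription factor of proteasome genes (1.76), Sqstm1, the autophagy receptor p62 (1.21), and Sun1, an inner nuclear membrane protein that links the nucleus to the cytoskeleton (1.19), were also gained. Sun1 had 81.3, 75.8 and 61.1 in control and 156, 168 and 174 with CK666 (adjusted p = 3.49e-08). Phyhd1, a phytanoyl-CoA dioxygenase homologue (1.46), Cd74, the invariant chain of MHC class II (1.38), Cdsn (1.23) and Bglap2 (1.19) complete the 10, of which Bglap2 lost its call without some single library.

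The 14 promoters lost at 4 h in MSC included several of contractile and adhesion genes. Ankrd1, an ankyrin repeat gene of the YAP response, fell from 62.0, 67.3 and 68.6 to 15.9, 30.1 and 29.7 (−1.37, SE 0.26, adjusted p = 7.65e-05). Acta2, smooth muscle actin, fell from 476, 572 and 519 to 262, 265 and 221 (−1.07, SE 0.09). Cald1, the actin-binding protein caldesmon, fell from 1365, 1312 and 1200.4 to 667, 592 and 549 (−1.10, SE 0.07, adjusted p = 3.34e-23). Cald1 was the only called promoter in the most open quintile of this comparison. Myl9, a myosin regulatory light chain, fell from 177, 166 and 129 to 84.5, 85.8 and 58.4 (−1.04), and an alternative start of Lpp, a focal adhesion LIM protein, from 192, 190 and 177 to 81.6, 79.6 and 88.1 (−1.17). Opn1sw (a cone opsin, −1.36), S100a16 (a calcium-binding protein, −1.29), Pcdhb7 (a protocadherin, −1.28), 1700009N14Rik (−1.25) and Ano7 (an anoctamin, −1.10) fell as well. S100a16, Pcdhb7, Ano7 and Acta2 lost their call without some single library, Acta2 with a log2 fold change of −0.99.

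In NIH3T3 at 4 h, the largest gain above a mean of 20 counts was at the gene start of Tenm4, a teneurin of cell adhesion, from 53.7, 45.2 and 58.4 to 316, 427 and 416 (2.89, SE 0.17, adjusted p = 1.36e-21). An alternative start of the same gene fell from 174, 165 and 150 to 51.9, 80.0 and 72.6 (−1.23, SE 0.18). Ppp1r15a, the GADD34 gene of the integrated stress response, rose from 15.2, 17.3 and 16.2 to 81.6, 107 and 101 at an alternative start (2.57, SE 0.26), and Phyhd1 from 25.3, 12.3 and 16.2 to 93.4, 106 and 89.8 (2.44, SE 0.26). The control and CK666 libraries were far apart at these promoters. The fourth gain in that order was at a weak window with wide spread in the CK666 libraries. The hedgehog ligand gene Ihh had 12.2, 6.57 and 8.09 in control and 40.0, 12.5 and 77.4 with CK666 (2.30, SE 0.42), so that its lowest CK666 library barely exceeded its highest control. Pgm5 (a phosphoglucomutase-like protein of cell junctions, 2.19), Rims2 (a synaptic vesicle release gene, 2.09), Gm21964 (2.01), Ccdc106 (2.0), Islr (1.95) and Gm47841 (1.95) followed, and Ihh, Pgm5, Rims2 and Ccdc106 have CpG-rich promoters. Ihh, Gm21964 and Ccdc106 lost their call without some single library. The count of 186 gained promoters was 96 without control library 1, 100 without control library 3 and 102 without CK666 library 3.

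Cd68, a macrophage lysosomal protein and the only called hematopoietic marker in NIH3T3, rose from 74.9, 87.1 and 71.9 to 149.8, 159 and 162 (1.01), where the 3 such markers tested summed to 272 to 276 in control and 297 to 348 with CK666. Their part in this gain was not tested.

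Losses in NIH3T3 were led by the membrane proteases Tmprss11f, which fell from 228, 196 and 191 to 38.6, 49.9 and 63.1 (−1.99, SE 0.18), and Tmprss5, which fell from 62.8, 58.3 and 92.6 to 16.3, 27.0 and 13.4 at an alternative start (−1.90, SE 0.29). The olfactory receptor gene Olfr692 fell from 42.5, 35.3 and 37.8 to 11.9, 8.31 and 11.5 (−1.87). No control library overlapped a CK666 library at these promoters. Aqp1, the water channel aquaporin 1, fell from 213, 191 and 248 to 62.3, 69.6 and 75.5 (−1.64, SE 0.17, adjusted p = 2.68e-11), and Ldb3, a muscle Z-disc protein, from 200, 117 and 182 to 47.5, 67.6 and 54.5 (−1.53). Plekha8 (a lipid transfer protein, −1.77), Mtss1l (a membrane-bending actin regulator, −1.64), Clec2h (a lectin, −1.52), S100a5 (−1.43) and Hs3st1 (a heparan sulfate sulfotransferase, −1.40) followed, of which Hs3st1 lost its call without some single library.

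**Figure D3:**
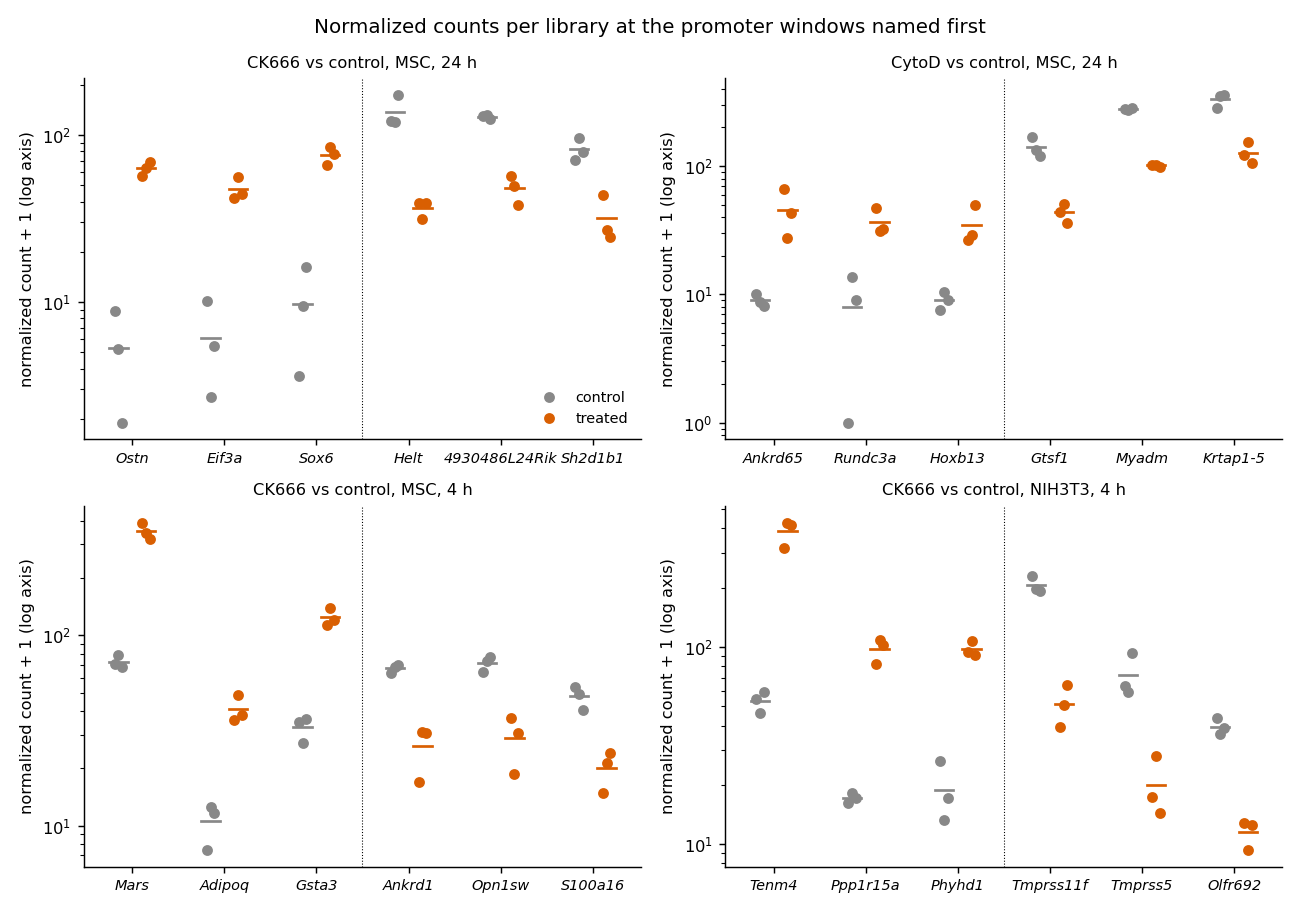
Normalised counts plus 1 (log axis) of each library at the 3 largest gains (left of the dotted line) and 3 largest losses (right) above a mean of 20 counts in each comparison, with control in grey, treated in orange and the group mean as a bar. Control and treated libraries do not overlap at any of these 24 promoters, which the choice required, and control counts at Ostn run from 0.894 to 7.79 beside 56.2 to 67.8 with CK666.

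The CK666 comparisons at 4 h and 24 h in MSC share no control libraries. Of the 39 genes with a called promoter at 4 h, 15 were called in the same direction at 24 h (38.5% of the 39 and 11.7% of the 128 genes at 24 h), and 0 in the opposite direction. The 14 that gained were Eif3a (3.27 at 24 h and 2.48 at 4 h), Gsta3 (2.86 and 1.95), Mars (1.89 and 2.29), Cd74 (1.91 and 1.38), Cdsn (2.0 and 1.23), Sqstm1 (1.89 and 1.21), Phyhd1, Bglap2, Tenm4, Gnpnat1, Sh3tc2, Dcaf8, Tmem116 and Creg1. Others were not called at 24 h: Adipoq had 0.36 (adjusted p = 0.483), and Ankrd1 −0.90 (adjusted p = 0.244). Of the other 4 h losses, Cald1 had −0.79 (adjusted p = 8.97e-09) and Acta2 −0.54 (adjusted p = 0.000168) at 24 h, below the fold limit. Ano7 had 0.06 (adjusted p = 0.917). Over 14612 promoter windows matched between the tables, the 2 sets of log2 fold changes had a Pearson correlation of 0.32 and a Spearman correlation of 0.27, where the points share sequence and baseline openness.

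At 4 h, MSC and NIH3T3 shared 5 genes with gained promoters, which is 12.8% of the 39 genes called in MSC and 2.07% of the 241 called in NIH3T3: Phyhd1 (1.46 in MSC and 2.44 in NIH3T3), Cd74 (1.38 and 1.33), Cdsn (1.23 and 1.23), Tenm4 (1.13 and 2.89) and Prdm15 (1.11 and 1.52). At Tenm4, the 1 gene called in opposite directions as well, a different window was lost in NIH3T3, as given above. The Pearson correlation was 0.17 over 14961 matched windows. Phyhd1, Cd74, Cdsn and Tenm4 were gained in all 3 CK666 comparisons, with CytoD values of 0.12, 0.93, −0.54 and 0.91. Between MSC at 24 h and NIH3T3 at 4 h, 14 genes were gained in both, among them Tet1, which oxidizes methylated cytosine (1.53 and 1.70), Calhm6, a calcium homeostasis modulator (1.39 and 1.81), and Ppp1r15a (1.04 and 2.57), while 2 genes were called in opposite directions. Over 14266 matched windows the Pearson correlation was 0.12 and the Spearman correlation 0.083.

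**Figure D4:**
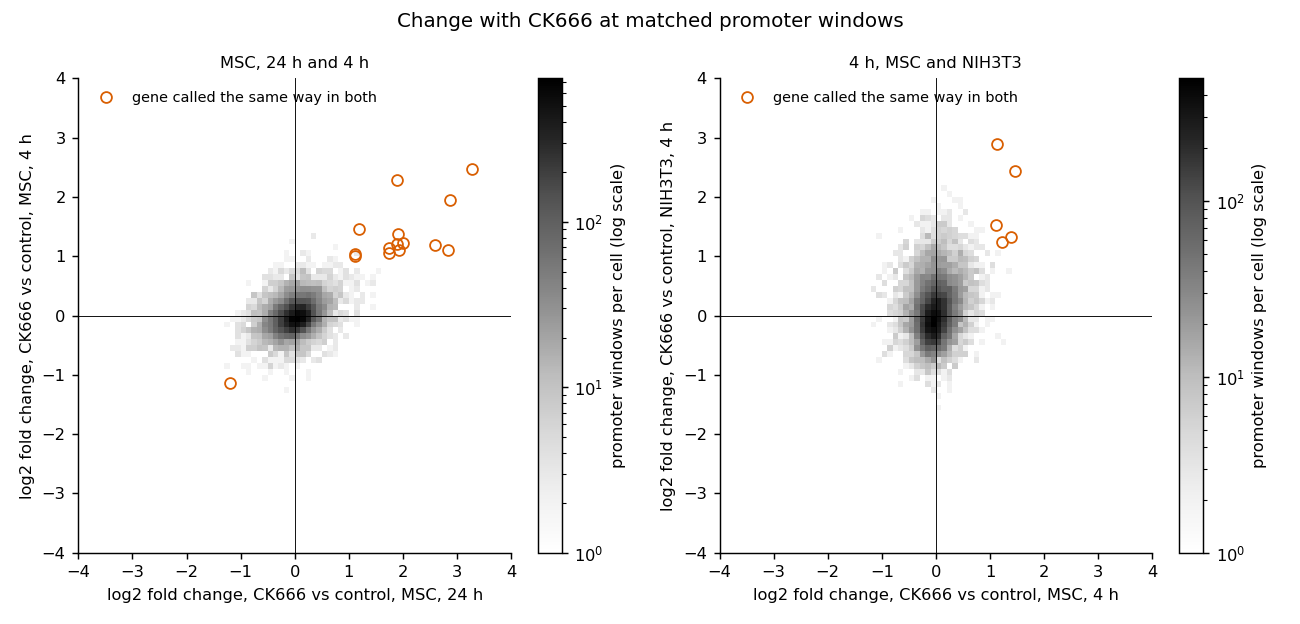
Log2 fold change with CK666 at promoter windows matched between comparisons, MSC 24 h (x) against MSC 4 h (y) on the left and MSC 4 h (x) against NIH3T3 4 h (y) on the right, with the number of windows per cell in grey (log scale) and genes called the same way in both as orange circles. Of the 15 shared genes on the left 14 are gains, and the 5 on the right are all gains.

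The difference between cell types was tested with the interaction of CK666 and cell type over all 12 libraries at 4 h. Of 15996 promoters tested, 82 had a higher CK666 effect in NIH3T3 and 48 a lower one (0.813%), beside 1.42% of autosomal windows without a TSS (0.501% and 0.922%). Of the promoters named above, Tenm4 (1.73), Ppp1r15a (1.64), Pgm5 (1.96), Rims2 (2.47), Ankrd1 (1.36), S100a16 (2.03) and Cald1 (1.02) were among the first set, and Mars (−1.48), Tmprss11f (−1.95), Plekha8 (−1.89), Mtss1l (−1.78) and Aqp1 (−1.33) among the second. Ankrd1 fell in MSC and had 0.02 in NIH3T3 (adjusted p = 0.95), and Cald1 had −0.05 there (adjusted p = 0.827). Mars had 0.83 in NIH3T3 (adjusted p = 0.0153).

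Promoters of SRF and MRTF targets, the genes of contractile actin filaments and focal adhesions, lay below the median promoter in each comparison. Neither this list nor those below were matched for openness, though quintile medians differed with CytoD and in NIH3T3. The list median was −0.17, −0.26, −0.26 and −0.18 beside 0.03, −0.07, −0.03 and 0.00 over all promoters (CK666 at 24 h, CytoD, and CK666 at 4 h in MSC and NIH3T3), a difference of −0.21, −0.19, −0.24 and −0.18 that stayed negative under each scaling tried. Histone gene promoters lay lower still with CK666 at 24 h, CytoD and CK666 in NIH3T3, by −0.22, −0.21 and −0.19 relative to all promoters. Their difference was −0.07 at 4 h in MSC. In that comparison, Acta2 and Myl9 of the SRF and MRTF list were called lost among its 32 windows tested. At an adjusted p under 0.01 without the fold limit, 12 of the 32 fell, beside 585 of all 15440 promoters, among them Tagln, the calponin-like transgelin (−0.80), Actn1, an actin cross-linker (−0.46), Itga5, the fibronectin receptor subunit (−0.46), Fhl2 (−0.47) and Zyx, zyxin (−0.15), and an alternative start of Actb, cytoplasmic actin, rose (0.52). Tagln had 122, 129 and 122 in control and 87.5, 61.0 and 67.0 with CK666. The promoter of Srf itself had 0.10 (adjusted p = 0.493). In the other comparisons 3 of 32, 7 of 32 and 7 of 33 windows of the list fell at that limit, beside 298 and 728 of 16190 and 725 of 15493 promoters, and 0 rose: Acta2 had −0.54, −0.98 and −0.75 with CK666 at 24 h, CytoD and CK666 in NIH3T3, and an alternative start of Fermt2, an integrin activator, was called lost with CK666 at 24 h (−1.15).

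YAP and TEAD targets lay lower as well, by −0.16, −0.08, −0.14 and −0.12 relative to all promoters. Ankrd1 at 4 h in MSC was the only call among 37 windows there. At an adjusted p under 0.01, 9 of 37 fell and 1 rose in that comparison, beside 585 and 248 of all 15440 promoters, the largest falls below the fold limit being Ccn2 (−0.84) and Ccn1 (−0.71), the matricellular proteins CTGF and CYR61. Ccn2 fell from 1050, 1141 and 1094 to 638, 604 and 591, with no overlap between groups. Amotl1, an angiomotin that binds YAP, rose (0.65). Of the promoters of Arp2/3 subunits and its activators, the direct target of CK666, 0 of 25 were called at 4 h in MSC, beside 0.259% of all promoters. There Actr3, the ARP3 subunit, fell by 0.36, as did Arpc4, with Cyfip1 (−0.25) and Wasl (−0.25) at an adjusted p under 0.01, and in NIH3T3 the gene start of Actr3 fell by 0.54. With CK666 or CytoD at 24 h, 0 of 27 passed that limit, beside 4.32% and 5.40% of all promoters.

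Of the adipocyte differentiation windows, 8.11% of 37 were called with CK666 and with CytoD at 24 h, 3.03% of 33 with CK666 at 4 h in MSC and 3.70% of 27 in NIH3T3, beside 0.778%, 0.451%, 0.259% and 1.54% of all promoters, from 1 to 3 windows in each. At 24 h, CK666 gained Cd36, a fatty acid transporter (1.47), and Plin1, the lipid droplet coat of fat cells (1.51), and lost an alternative start of Plin2 (−1.02), and CytoD gained Plin1 (1.45), Adipoq (1.08) and Acaca (1.66). Pparg, the master regulator of fat cells, fell by 0.48 at its gene start with CK666 at 24 h (adjusted p = 0.000409), while Cebpb, an early adipogenic factor, rose by 0.47 then and by 0.44 at 4 h. In NIH3T3 an alternative start of Klf15, a Krüppel-like factor of metabolism, was gained (1.53), and Cebpa rose by 0.85. The median of this list lay 0.10, 0.10, 0.16 and 0.01 above all promoters. Of osteoblast genes, the neighbouring osteocalcin copies Bglap (1.73) and Bglap2 (2.60) were gained with CK666 at 24 h (8.0% of 25 windows), Bglap2 alone at 4 h in MSC (4.17% of 24), and 0 of 25 windows were called with CytoD. Dlx5, a homeobox factor of bone, fell by 0.80 with CK666 at 24 h. Among genes of the unfolded protein response, the Herpud1 alternative start was the only call, 1 of 23 windows with CK666 at 24 h (4.35%), beside 0.778% of all promoters. The median of this list lay 0.04, −0.08, −0.03 and −0.03 from that of all promoters. Of its 23 windows, 18, 4, 7 and 10 had a log2 fold change above 0. Trib3, a pseudokinase induced by ER stress, rose in the 3 CK666 comparisons (0.64, 0.35 and 0.52), as did Chac1, which degrades glutathione (0.47, 0.38 and 0.85), and Chac1 fell with CytoD (−0.98). The aryl hydrocarbon receptor target Ugt1a6a, a glucuronosyltransferase, was gained in NIH3T3 (1.05) and rose by 0.68 and 0.99 in MSC at 24 h and 4 h with CK666. Promoters of cell cycle genes, chromatin remodelers of the BAF, INO80 and TIP60 complexes, ribosomal proteins and histones had 0 calls in the 4 comparisons, on 31 to 88 windows per list. With 0.778%, 0.451%, 0.259% and 1.54% of all promoters called, 0 calls do not set these lists apart. With CytoD, 7 of 37 cell cycle promoters fell at an adjusted p under 0.01, beside 728 of all 16190, including Top2a (−0.57) and Ccnb1 (−0.55). Immediate early and AP-1 genes had 0 calls as well, on 28 to 30 windows. In NIH3T3, 1 of 363 zinc finger gene promoters was gained (0.275%), beside 1.54% of all promoters called. With CK666 at 24 h, 3 of 74 olfactory receptor windows (4.05%) and 1 of 30 Hox windows (3.33%) were called, beside 0.778% of all promoters.

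**Figure D5:**
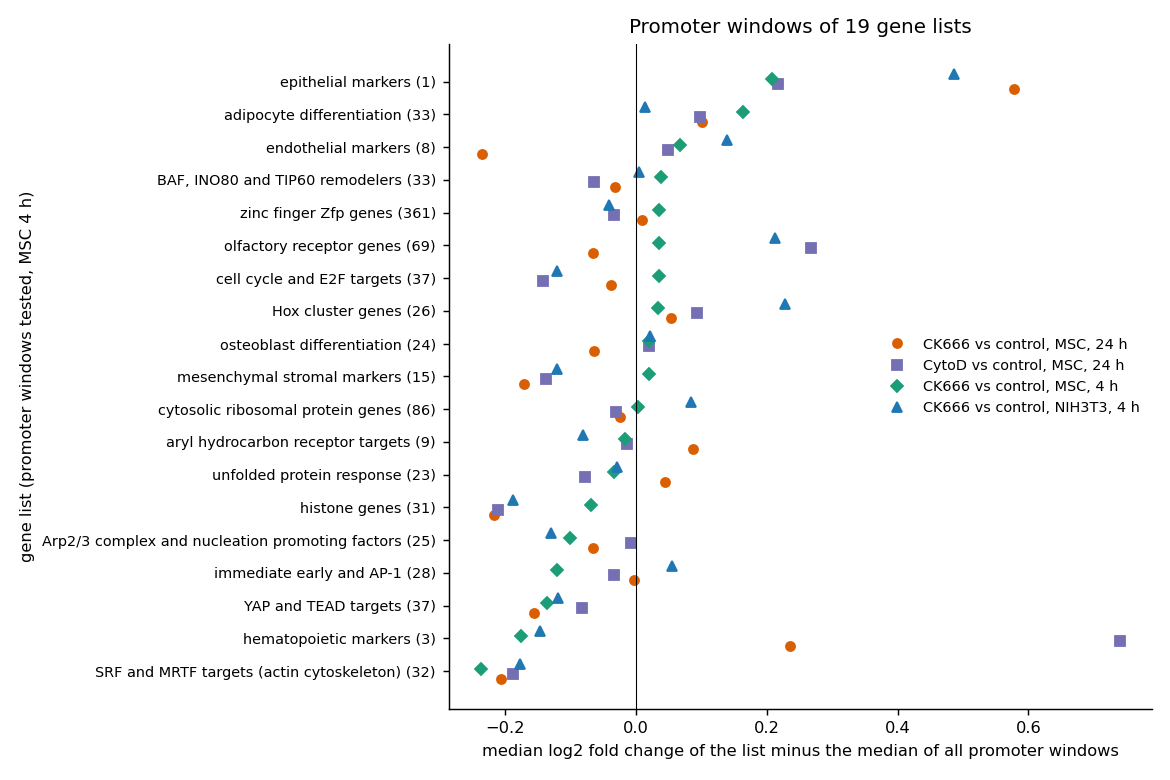
Median log2 fold change of the promoter windows of 19 gene lists minus the median of all promoter windows (x axis, log2), with lists on the y axis and the 4 comparisons as symbols. The SRF and MRTF list lies between −0.18 and −0.24 in the 4 comparisons and the histone list between −0.07 and −0.22. Lists of few windows such as hematopoietic and epithelial markers scatter most.

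Short sequence matches were counted in the 500 bp centred on the TSS, on both strands. TGATGNAA was present in 3.51% of all tested promoters at 24 h and in 5.94% of CpG-poor ones, and in 19 of the 90 promoters gained with CK666 (21.1%), among them Ostn, Eif3a, Try5, Herpud1, Bglap2, Bglap and Tet1. It was in 0 of the 36 promoters lost with CK666 and in 0 of the 42 gained with CytoD. In NIH3T3 it was in 14 of the 186 gained (7.53%), of which 52 were CpG-rich. The 3.51% and 5.94% are shares at 24 h, so the NIH3T3 share is given without a matched background. At 4 h in MSC, TGATGNAA was in Eif3a and Bglap2 among the 26 gained. TGANTCA was present in 9.05% of all and 15.4% of CpG-poor promoters, and in 15 of the 31 lost with CytoD (48.4%), among them Bcat1, Nup93, C4bp and Gzmb, which encodes the protease granzyme B and fell from 139, 182 and 160 to 77.6, 71.7 and 70.4 (−1.14). In NIH3T3 it was in 20 of 52 lost promoters (38.5%), including Tmprss11f, Tmprss5, Ldb3 and Clec2h, beside 10.3% of all and 18.5% of CpG-poor promoters tested there. Among the 14 lost with CK666 at 4 h in MSC, it was in Teddm1b, 1700009N14Rik, Lpp, Ano7 and Clca3b. GGAATG, the site of TEAD, was in 8 of the 14 promoters lost at 4 h in MSC (57.1%), among them Ankrd1, Cald1, Acta2 and Lpp, beside 18.8% of all and 25.4% of CpG-poor promoters. A CArG box was in 3 of these 14, namely 1700009N14Rik, Lpp and Myl9, beside 1.65% of all and 2.20% of CpG-poor promoters. GGGCGG, the GC box bound by Sp1, was in 66.7% of all promoters, 35.1% of CpG-poor ones and 16.7% of those gained with CK666 at 24 h. These matches describe the sequences, and binding was not measured.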

How the data were processed

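ATAC-seq (Omni-ATAC) libraries were processed by the authors on mm10 (build per the submitters' processing notes) with PEPATAC, bowtie2 and MACS2, and the authors deposited raw read counts per window of a union of peaks. The sources used here give neither tool versions nor read filters. No sample column of another series was present (0 unused). Counts were fitted per table with edgeR 4.0.16 (R 4.3.3) after filterByExpr and TMM scaling, which assumes that most windows do not change; p-values were adjusted over all windows by Benjamini-Hochberg, and calls needed an adjusted p below 0.01 and more than 2-fold change. Normalised counts are counts divided by the effective library size, times its mean over the fit. Openness groups were cut at promoter quintiles of mean CPM. Named promoters were up to 10 per direction by log2 fold change, with a mean of at least 20 normalised counts and groups without overlap, plus shared and listed genes called. Some results of this rule are not reported here. CK666 and CytoD at 24 h share controls. The 19 gene lists and the windows were chosen with earlier results of these data known. DESeq2 1.42.0, other scalings and filters, single libraries left out and a replicate block were tried. The steps were tested on simulated data. RefSeq tables were not used, and sequences and TSSs are from GRCm38 with GENCODE vM21.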

Additional observations from a re-analysis of the deposited data

Results flagged for a closer look

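The CK666 effect at 4 h differed between NIH3T3 and MSC, by the interaction test over 12 libraries, at 130 promoter windows, of which 17 are named promoters. Values are the NIH3T3 effect minus the MSC effect on the log2 scale. Promoters with a higher effect in NIH3T3 were Rims2 (2.47), S100a16 (2.03), Pgm5 (1.96), Gm47841 (1.79), Tenm4 (1.73), Ppp1r15a (1.64), Pcdhb7 (1.58), Ano7 (1.39), Ankrd1 (1.36) and Cald1 (1.02). Of these, S100a16, Pcdhb7, Ano7, Ankrd1 and Cald1 were called lost in MSC, and the others were called gained in NIH3T3. Promoters with a lower effect in NIH3T3 were Tmprss11f (−1.95), Plekha8 (−1.89), Mtss1l (−1.78), Clec2h (−1.63), Mars (−1.48), Aqp1 (−1.33) and Ldb3 (−1.06). Mars was called gained in MSC, and the other 6 were called lost in NIH3T3.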

How the results depend on the processing

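Counts below are promoters gained and lost with CK666 at 24 h, with CytoD, and with CK666 at 4 h in MSC and in NIH3T3. With 1 library left out they were 69 to 74 and 30 to 41, 24 to 40 and 29 to 43, 18 to 24 and 10 to 17, and 96 to 240 and 44 to 78, with medians of −0.01 to 0.04, −0.12 to −0.073, −0.06 to −0.02 and −0.06 to 0.01. Replicate numbers did not pair the samples, since same-numbered libraries correlated at −0.18 to 0.06, and with a replicate block the counts were 88 and 36, 40 and 30, 28 and 15, and 181 and 52. At an adjusted p under 0.05 with no fold limit they were 828 and 534, 347 and 1425, 496 and 1071, and 1095 and 1390, for CK666 against CytoD 2344 and 384, and for the cell type difference 409 and 644. With gene starts only, gained counts were 44, 27, 13 and 118, lost counts 16 with CytoD and 30 in NIH3T3, CK666 against CytoD gave 39 and 23, and 21 promoters had a lower effect in NIH3T3. The CytoD count gained was 67 among windows with a mean of at least 20 counts and 25 with DESeq2, and that lost 18 under total counts, 18 under promoter-only TMM and 20 with a loess offset. DESeq2 gained 16 promoters at 4 h in MSC and 83 in NIH3T3, and total counts gave 34 lost in NIH3T3, 57 lower with CK666 than CytoD and 28 lower in the cell type difference. In the most open quintile, calls with CK666 at 24 h were 2 with openness from control CPM and 6 with control CPM per kb, which also gave 5 with CytoD and 0 at 4 h in MSC. Median log2 fold changes with CytoD were 0.0036 (total counts), 0.0010 (promoter-only TMM) and 0.053 (loess), and in NIH3T3 0.11 and 0.15 under total counts and loess. The cause of these shifts was not tested. DESeq2 gave no adjusted p for Adipoq and Pcdhb7 at 4 h in MSC. No named promoter changed direction under DESeq2, total counts, the replicate block or with 1 library left out. The balance of gained and lost counts did shift. With CytoD it was 42 and 31 in the main fit, 25 and 31 with DESeq2, and 57 and 18 with promoter-only TMM. For the cell type difference it was 82 and 48 in the main fit, against the 409 and 644 given above. Weak promoters of under 20 counts limit what 3 libraries can show.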
